A study of Capra hircus with 9 samples.

Results

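miR-128 was examined together with a set of miRNAs best known from nervous tissue, miR-129, miR-9, miR-124, miR-137 and miR-219, in the submandibular gland of the goat. They were chosen by name alone: every entry of the deposited miRNA table named miR-128, miR-129, miR-9, miR-124, miR-137 or miR-219 was taken, whatever its arm or ending. This gave 19 of 2189 entries, namely 4 for miR-128, 4 for miR-129, 4 for miR-9, 2 for miR-124, 2 for miR-137 and 3 for miR-219. Of the 19, 9 carry goat names with the prefix chi- and 10 carry general names ending in -x, -y or -z. The study sequenced small RNAs of whole submandibular glands from 9 healthy female Lubo goats, 3 aged 1 month, 3 aged 12 months and 3 aged 24 months, each library from a different animal. All were reared alike and none received a treatment, so age is the only difference the labels give. The libraries are named here by age and by the number in their label, so that 1-month 2, for example, is the goat with number 2 of the youngest group (1-month goats carry the numbers 1 to 3, 12-month goats 3 to 5, and 24-month goats 2, 3 and 5).

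A mature miRNA guides a silencing complex to messenger RNAs mainly through its seed, the bases from position 2 to position 8, and each hairpin can give a mature RNA from its 5p and its 3p arm. miR-128 is abundant in neurons and is also known from early lymphocytes. miR-124 and miR-9 are hallmarks of neurons and their progenitors, miR-129 and miR-137 are enriched in brain, and miR-219 is known for its part in the maturation of oligodendrocytes. A whole gland holds nerve fibres, blood and lymphoid cells beside its epithelium.

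Library totals ran from 8288492 to 13277448 counts. Library 1-month 2 stood apart from the rest: goat-named entries took 66.6% of its counts, against 79.7% to 83.6% in the other libraries, and a list of leukocyte miRNAs took 12.7%, against 5.78% in 1-month 3 and 3.73% in 1-month 1. The main results on miR-128 and miR-129, and others that it moved, are therefore also given without it. miR-375-y, known from secretory epithelium, was present at every age, at 8371 ± 224 (SD, n = 3), 23096 ± 5638 and 31910 ± 2378 CPM at 1, 12 and 24 months. CPM here are counts relative to the library total, in the usual unit, after scaling by TMM (trimmed mean of M values), so that most entries keep the same level between libraries.

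The sequences of the miR-128 and miR-129 entries are shown because the age differences lie in them. They come from the deposited table, are written 5′ to 3′, and have the seed in capitals.
chi-miR-128-3p: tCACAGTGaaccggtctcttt
miR-128-y: tCACAGTGaaccggtctctttca
chi-miR-128-5p: cGGGGCCGtagcactgtctgaga
chi-miR-129-5p: cTTTTTGCggtctgggcttgc
chi-miR-129-3p: aAGCCCTTaccccaaaaagcat
The entry miR-128-y begins with the whole of chi-miR-128-3p and runs on by 2 bases at its 3′ end, so both have the same seed and are listed forms of 1 RNA. The remaining miR-128 entry, miR-128-x, is chi-miR-128-5p with 1 more base. For miR-129, miR-129-x is chi-miR-129-5p with the substitution C1A, counted from 1 at the 5′ end, and miR-129-y starts 1 base later than chi-miR-129-3p.

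Among the other families, the entries below are shown because they carry most of the remaining counts, and because 1 pair differs in its 5′ end and so in its seed.
chi-miR-9-5p: tCTTTGGTtatctagctgtatga
chi-miR-9-3p: aTAAAGCTagataaccgaaa
miR-9-z: tAAAGCTAgataaccgaaagta
chi-miR-124a: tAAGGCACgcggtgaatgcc
chi-miR-219: tGATTGTCcaaacgcaattct
The entry miR-9-z starts 1 base later than chi-miR-9-3p, which shifts the seed by that base. The name miR-124-y does not mark a longer form of chi-miR-124a: their seeds differ. miR-219-x is chi-miR-219 with 2 more bases, and miR-219-y has another seed. No member had the same whole sequence as any other entry, and 0 entries outside the set held a run of 15 bases of a member, so no entry outside the set was a likely second name for their reads. In the RefSeq table of goat genes, MIR128 overlaps R3HDM1, MIR129 lies between HSD17B12 and TTC17, and MIR124A follows BHLHE22; those names come from an assembly that the sources do not tie to these counts, so no coordinates are given.

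miR-128 dominated the set at every age and was far higher at 1 month than later. In the glands of 1 month, miR-128 entries held 97.3% to 99.8% of all counts of the 19 entries, against 81.9% to 84.8% at 12 months and 65.4% to 87.8% at 24 months. chi-miR-128-3p, the abundant arm, stood at 5196, 30473 and 2980 CPM in libraries 1, 2 and 3 of 1 month. It stood at 400.0, 311 and 484 CPM in the libraries of 12 months, and at 417, 191 and 263 CPM in those of 24 months. Every library of 1 month lay above every later one, and 1-month 2 lay far above the other 2 of its age, while the ages of 12 and 24 months overlapped.

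Differences between ages are given as log2 fold changes from edgeR's quasi-likelihood test, fitted to all 9 libraries, with p-values adjusted by Benjamini and Hochberg over the 937 entries that passed a filter on low counts. An entry is called at an adjusted p under 0.05. The SE given with them was worked back from that test, as the size of the log2 fold change divided by the square root of its F statistic. chi-miR-128-3p fell by 5.02 (SE 0.85) on the log2 scale from 1 to 12 months, with edgeR's adjusted p = 0.00385. From 1 to 24 months it fell by 5.47 (SE 0.86), with edgeR's adjusted p = 0.00229. Without 1-month 2 the log2 fold changes were -3.38 and -3.83 and both were still called, so that library sets the size and not the call. The comparisons of 12 and of 24 months both use the same 3 libraries of 1 month and are not independent of each other.

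miR-128-y, the form longer by 2 bases, showed the wider gap. It stood at 824, 6202 and 371 CPM in libraries 1, 2 and 3 of 1 month, and at 10.8, 13.5 and 15.8 CPM at 12 months. In the libraries of 24 months it stood at 15.1, 8.53 and 13.1 CPM. The lowest library of 1 month was thus more than an order of magnitude above the highest later one, and the later ages overlapped. The log2 fold change was -7.52 (SE 1.06) to 12 months and -7.65 (SE 1.07) to 24 months, with edgeR's adjusted p = 0.00154 and 0.00146. Without 1-month 2 these became -5.49 and -5.62, again called.

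**Figure D1:**
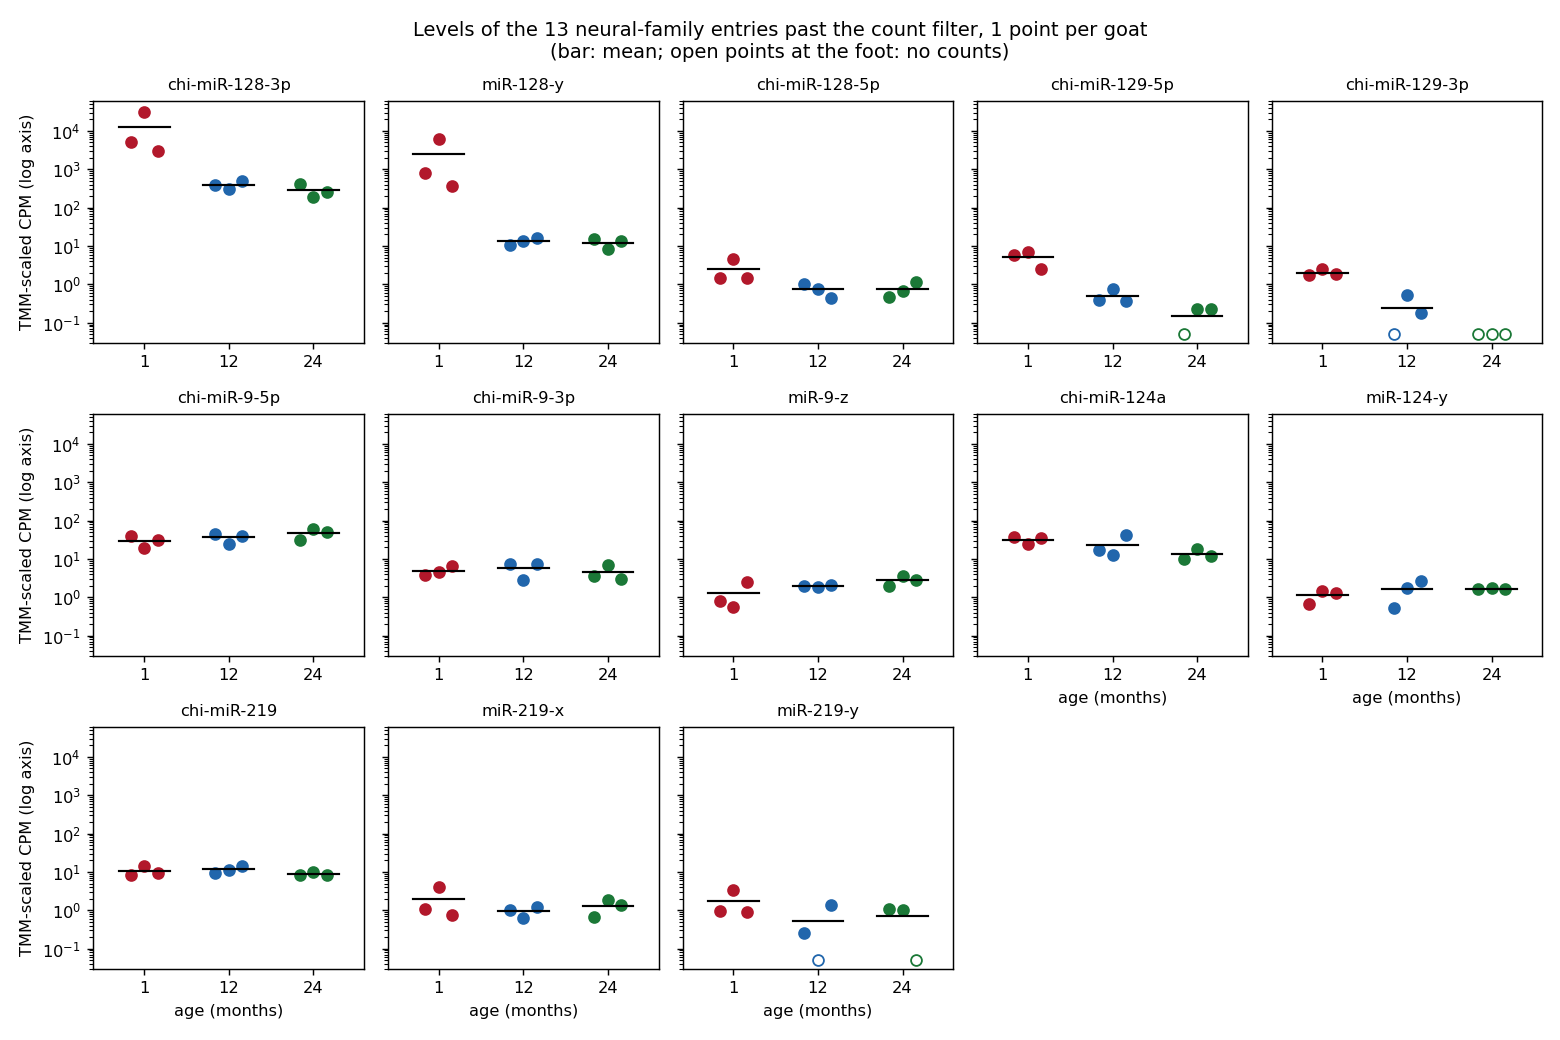
Levels of the 13 entries that passed the count filter, in TMM-scaled CPM on a log axis, against age in months, with 1 point per goat, a bar for the mean of each age and open points at the foot for libraries with no counts. The 3 points of 1 month lie above all later points for the 3 panels of miR-128 and the 2 of miR-129, while the panels of miR-9, miR-124 and miR-219 lie near one level or overlap between 1 and 12 months.

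The 5p arm, chi-miR-128-5p, was rare throughout. It had 18, 59 and 21 counts in libraries 1, 2 and 3 of 1 month, 8, 7 and 5 counts at 12 months, and 5, 6 and 10 counts at 24 months. Its level was 2.55 ± 1.86 CPM (SD, n = 3) at 1 month, 0.742 ± 0.291 CPM at 12 months and 0.772 ± 0.344 CPM at 24 months. All 3 libraries of 1 month were above all later ones, but neither comparison was called: the log2 fold changes were -1.78 (SE 0.71) and -1.72 (SE 0.71), with edgeR's adjusted p = 0.0898 and 0.0891. Without 1-month 2 they were -1.03 and -0.96.

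The proportions among the miR-128 forms were also set side by side. Their tests are given after the values and, with so few libraries, could not pass after adjustment. miR-128-y made up 13.7%, 16.9% and 11.1% of the counts of both 3p forms in libraries 1, 2 and 3 of 1 month. It made up 2.63%, 4.17% and 3.16% at 12 months, and 3.50%, 4.27% and 4.76% at 24 months. The ages of 12 and 24 months overlapped and both lay wholly below 1 month. In single libraries the Wilson 95% interval, which covers counting error only, was 13.4% to 13.9% in 1-month 1 and 2.13% to 3.25% in 12-month 3, so counting error was small beside this gap. The rule by which reads were assigned to the shorter or the longer entry is not stated in the sources, so the shares depend on that rule, and all libraries stand in 1 table.

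As a log2 ratio of miR-128-y to chi-miR-128-3p counts (0.5 added to each), the mean was -2.65 ± 0.36 (SD) at 1 month and -4.70 ± 0.33 over the 6 later libraries, a difference of -2.05. An exact two-sided permutation test of 3 against 6 libraries gave p = 0.0238, the smallest it can give, and 0.119 after Benjamini-Hochberg adjustment over the 20 permutation tests made. No test of that family could fall under 0.05 after adjustment, since most compare 3 against 3 libraries and cannot go below 0.1. That it did not pass was therefore fixed by the number of libraries. Without 1-month 2 the difference was -1.87. Against 12 months alone the difference was -2.23 and against 24 months -1.87, each with an exact permutation p of 0.1, the smallest for 3 against 3. For comparison, 92 pairs of a goat-named entry and a longer form had enough counts (89 goat-named entries, some with several longer forms). Their differences ran from -2.05 to 1.55 with a median of 0.06, and that of miR-128 was the lowest of the 92. In 13 of the 92 pairs, miR-128 among them, 1 month and later did not overlap, and 4 of the 13 were lower later.

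The arms were compared in the same way. chi-miR-128-3p had 3526, 6492 and 2010 counts for each count of chi-miR-128-5p in libraries 1, 2 and 3 of 1 month. It had 388, 417 and 1078 at 12 months, and 866, 280 and 228 at 24 months. The ranges of 1 month and later did not overlap, although the later values rest on 5 to 10 counts of the 5p arm per library. The log2 ratio was 11.78 ± 0.86 (SD, n = 3) at 1 month and 8.74 ± 0.87 later, a difference of -3.04 with an exact permutation p of 0.0238, again the smallest possible and 0.119 after adjustment over the 20 tests. Without 1-month 2 the difference was -2.60. This ratio was added after its values were seen. Among 122 pairs of goat-named 3p and 5p entries, the same difference ran from -3.04 to 1.58 with a median of -0.02, and that of miR-128 was the lowest. In 11 of the 122 pairs, miR-128 among them, 1 month and later did not overlap, and 4 of the 11 were lower later. The pairs were made by name, and those of chi-miR-199b and chi-miR-199c had the same values. The sources do not give the hairpins, so counts of a 3p entry may come from more hairpins than those of its 5p entry.

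**Figure D2:**
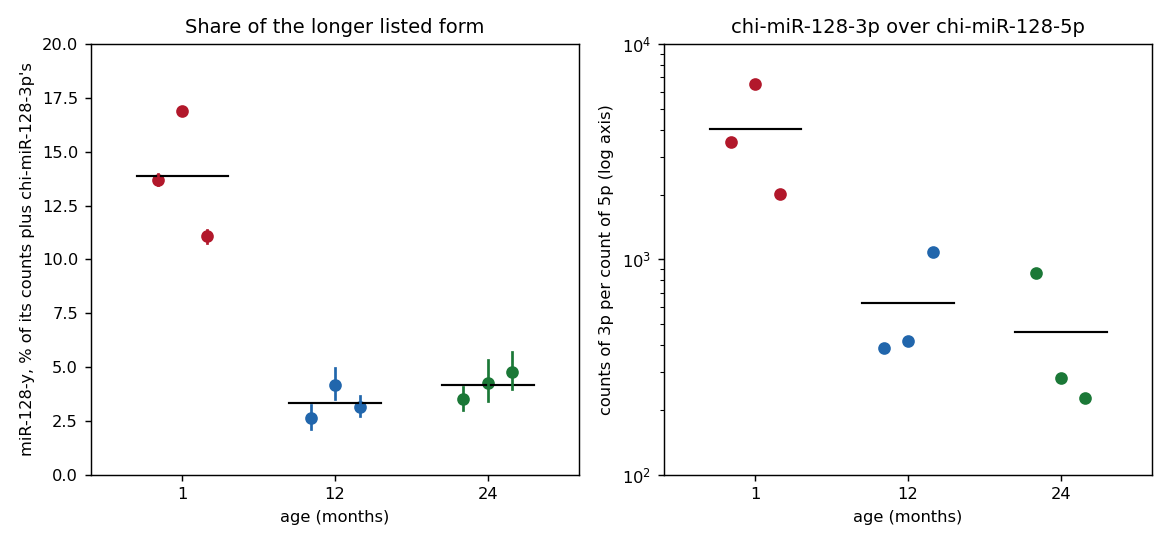
Left, the percent of miR-128-y among its own and chi-miR-128-3p counts by age in months, with Wilson 95% intervals; right, counts of chi-miR-128-3p per count of chi-miR-128-5p on a log axis; each point is a goat and each bar the mean of an age. The longer form took 11.1% to 16.9% at 1 month and 2.63% to 4.76% later, and the arm ratio was 2010 to 6492 at 1 month and 228 to 1078 later.

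Summed over its 4 entries, miR-128 took 0.711%, 3.47% and 0.408% of all counts in libraries 1, 2 and 3 of 1 month. It took 0.0343% to 0.0462% at 12 months and 0.0189% to 0.0416% at 24 months. The mean was 1.53% ± 1.69 (SD, n = 3) at 1 month and 0.0340% ± 0.0104 (SD, n = 6) later, with an exact two-sided permutation p of 0.0238, the smallest for 3 against 6, and 0.119 after adjustment over the 20 tests. On the log2 scale the later mean was lower by a difference of -5.49, and of -4.04 without 1-month 2. Between 24 and 12 months the exact permutation p for this share was 0.3, with overlapping libraries.

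miR-129 was scarce, and nearly all of its counts were in the glands of 1 month. chi-miR-129-5p had 73, 86 and 36 counts in libraries 1, 2 and 3 of 1 month. It had 3, 7 and 4 counts at 12 months, and 0, 2 and 2 counts at 24 months. These are levels of 5.12 ± 2.27, 0.497 ± 0.216 and 0.153 ± 0.132 CPM (SD, n = 3), and no pair of ages overlapped. Over each age the counts give a ratio of 1 month to 12 months of 11.6 (exact 95% interval for counting error 6.73 to 21.5), and of 1 month to 24 months of 41.4 (15.9 to 153.3).

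chi-miR-129-5p fell by 3.33 (SE 0.77) on the log2 scale from 1 to 12 months and by 5.01 (SE 0.88) from 1 to 24 months, with edgeR's adjusted p = 0.0138 and 0.00367. It reached the filter's level of 0.967 CPM only in libraries of 1 month, so it was in the test only by being high there. Its calls are therefore a description and no separate support for the fall. Without 1-month 2 the log2 fold changes were -3.08 and -4.76 (both called), so the library that stood apart in miR-128 did not set their size. In that library chi-miR-129-5p was 6.84 CPM, close to the 5.98 CPM of 1-month 1, where chi-miR-128-3p differed several-fold.

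The other arm, chi-miR-129-3p, had 21, 32 and 26 counts at 1 month, 0, 5 and 2 counts at 12 months, and no count in any library of 24 months. Its level was 2.03 ± 0.447 CPM (SD, n = 3) at 1 month and 0.238 ± 0.271 CPM at 12 months, and 0 counts over the libraries of 24 months allow up to 0.1003 CPM. It was at least 22.3-fold higher at 1 month than at 24 months, with a floor of 3 counts over the age, and edgeR's adjusted p was 0.0104. This arm too reached the filter's level only at 1 month, so its calls are a description as well. At 12 months the log2 fold change was -3.003 (SE 0.99) and was not called by edgeR, with an adjusted p of 0.0609, although the libraries did not overlap. It was called by DESeq2 (adjusted p = 0.0312), limma voom (0.0316), with the strict filter of 10 counts in every library of an age (0.0329) and with only the ages compared (0.0379), and the adjusted p ran from 0.0312 to 0.376 over all alternatives.

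As a family, miR-129 took 0.000938%, 0.000979% and 0.00055% of counts in libraries 1, 2 and 3 of 1 month, and 1.85e-05% to 0.000135% in the later ones. The exact two-sided permutation test of 3 against 6 gave p = 0.0238, the smallest possible, and 0.119 adjusted over the 20 tests. On the log2 scale the later mean differed by -4.13, and by -4.81 without 12-month 4, which held the most miR-129 of the later libraries. The ratio of the 2 arms of miR-129 did not differ detectably at this depth: the log2 ratio of 5p to 3p was 1.22 ± 0.68 (SD, n = 3) at 1 month and 1.46 ± 1.17 later, with an exact permutation p of 0.786. Its direction turned with a larger pseudocount, to -0.15 with 1 and -0.72 with 5. The arms were paired by name, and whether both come from the same hairpins is not given.

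The remaining 8 entries past the filter belong to miR-9, miR-124 and miR-219, and edgeR called none of them in the fit of all 9 libraries. chi-miR-9-5p, the main arm of miR-9, was at 39.6, 19.3 and 31.8 CPM in libraries 1, 2 and 3 of 1 month. It was at 45.4, 25.2 and 39.1 CPM at 12 months, and at 32.2, 62.1 and 50.8 CPM at 24 months. The ages overlapped, with means of 30.2 ± 10.3, 36.6 ± 10.4 and 48.4 ± 15.1 CPM (SD, n = 3), and the log2 fold change from 1 to 24 months was 0.68 (SE 0.43, edgeR's adjusted p = 0.254). The lowest of the 9 libraries was 1-month 2, the library with the most miR-128.

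The minor arm chi-miR-9-3p was at 4.95 ± 1.499, 5.83 ± 2.64 and 4.57 ± 2.26 CPM (SD, n = 3), with overlapping ages. The entry shifted by 1 base, miR-9-z, was at 1.28 ± 1.04, 1.94 ± 0.126 and 2.81 ± 0.808 CPM. It had a log2 fold change of 1.12 (SE 0.63) from 1 to 24 months with edgeR's adjusted p = 0.1995, and of 2.03 with adjusted p = 0.0482 without 1-month 3, which held 35 counts against 10 and 7 in the other libraries of its age. Its share of its own and chi-miR-9-3p counts was 18.7% ± 8.04, 27.4% ± 10.5 and 39.3% ± 7.64 (SD, n = 3) at 1, 12 and 24 months. The libraries of 24 months, at 33.7% to 48.0%, lay above those of 1 month, at 11.1% to 27.1%, but rest on 7 to 35 counts of miR-9-z, and this share was not tested.

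chi-miR-124a, the neuronal miRNA of the set with the best known role, was at 37.3, 24.1 and 34.7 CPM in libraries 1, 2 and 3 of 1 month. It was at 16.7, 12.7 and 42.1 CPM at 12 months, and at 9.73, 18.2 and 12.0 CPM at 24 months. The libraries of 24 months lay below those of 1 month, while 12-month 5 was the highest of all 9 and the other libraries of 12 months were below those of 1 month. The log2 fold change to 24 months was -1.27 (SE 0.51) with edgeR's adjusted p = 0.0798, and the adjusted p ran from 0.0385 to 0.244 over the alternatives. It was called with DESeq2 (adjusted p = 0.0385), with library size alone (0.0462), with no filter (0.0457) and without 12-month 5 (-1.44, adjusted p = 0.0412). To 12 months it was -0.42 (SE 0.50, edgeR's adjusted p = 0.542), and -1.53 without 12-month 5.

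miR-124-y was near 1 to 2 CPM at every age, with means of 1.12 ± 0.410, 1.61 ± 1.05 and 1.65 ± 0.0484 CPM (SD, n = 3). chi-miR-219, the oligodendrocyte miRNA, was at 10.8 ± 3.37, 11.8 ± 2.29 and 8.94 ± 1.12 CPM with overlapping ages, and its log2 fold changes were 0.13 (SE 0.38) and -0.27 (SE 0.38). Its longer form miR-219-x was at 1.94 ± 1.77, 0.976 ± 0.312 and 1.29 ± 0.578 CPM, and the other arm, miR-219-y, at 1.77 ± 1.43, 0.535 ± 0.715 and 0.695 ± 0.602 CPM. Both were highest in 1-month 2, at 3.98 and 3.42 CPM, against at most 1.06 CPM in the other libraries of that age. Without that library the log2 fold change of miR-219-x to 12 months turned from -0.98 to 0.07, and to 24 months from -0.59 to 0.46. The values of miR-219-y, -1.66 and -1.32, became -0.78 and -0.46. Over the 7 entries of miR-9, miR-124-y and miR-219, edgeR's adjusted p ran from 0.334 to 0.824 for 12 months and from 0.1995 to 0.908 for 24 months.

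**Figure D3:**
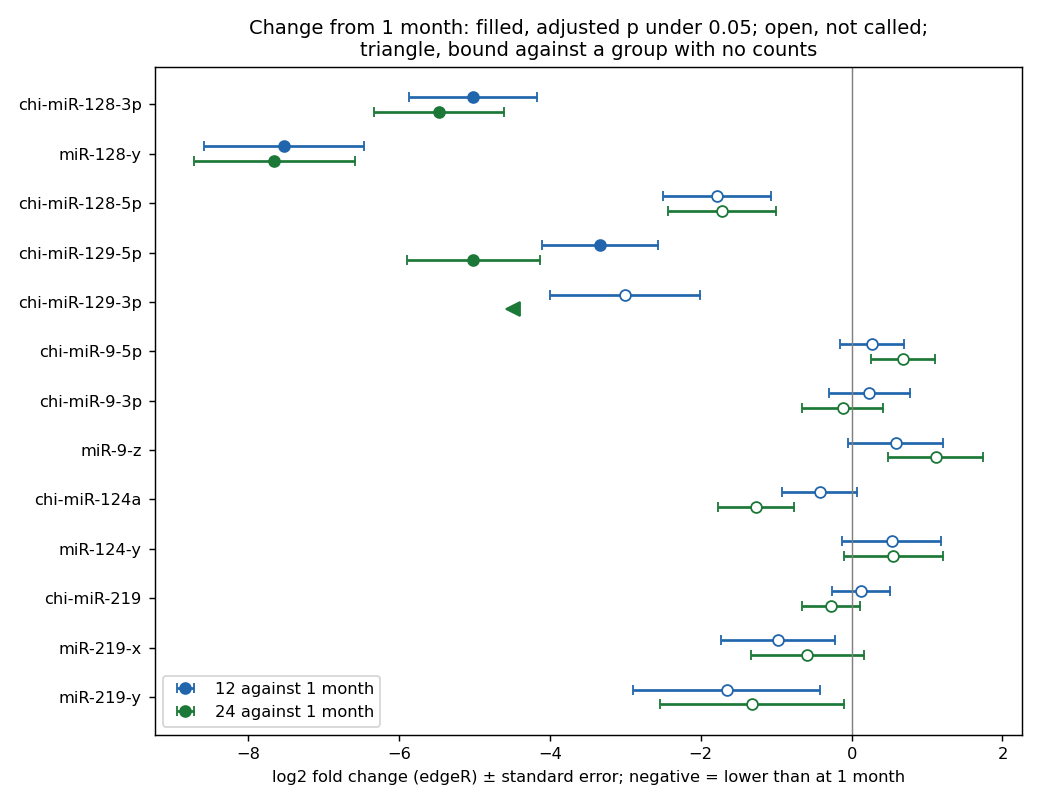
Log2 fold changes from edgeR for the 13 entries past the filter, 12 against 1 month and 24 against 1 month, with standard errors worked back from the F statistic. Filled points have an adjusted p under 0.05, open points were not called and the triangle is the bound for chi-miR-129-3p, which had no counts at 24 months. The filled points are those of miR-128-y, chi-miR-128-3p and chi-miR-129-5p at both ages, at -3.33 to -7.65. The open points of miR-9, miR-124-y and miR-219 lie between -1.66 (miR-219-y, 12 months) and 1.12 (miR-9-z, 24 months).

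The 6 entries below the filter hardly counted. Their counts over all 9 libraries were 36 for chi-miR-137, 17 for miR-129-x, 6 for miR-137-y, 6 for miR-9-x, 3 for miR-128-x and 2 for miR-129-y. miR-137, known from neuronal maturation, was thus barely detected: chi-miR-137 had 7, 0 and 3 counts in the libraries of 1 month, 0, 6 and 4 counts in those of 12 months, and 9, 0 and 7 counts in those of 24 months. miR-129-x had 15 of its 17 counts at 1 month, as its goat-named partner had most of its own.

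Counting all members, 3 of the 13 past the filter were called lower at 12 months and none higher, which is 23.1%, beside 13.2% of all 937 entries called lower. At 24 months 4 of 13 were called lower against 1 month, which is 30.8%, beside 17.5% of all entries. The ages of 1 and 12 months did not overlap in 5 of 13 (38.5%), beside 48.5% of all entries, and those of 1 and 24 months in 7 of 13 (53.8%), beside 47.2%. In the test of any difference between the 3 ages, 4 of 13 were called (both 3p forms of miR-128 and both goat-named arms of miR-129), beside 20.5% of all entries. These counts describe the set and do not set it apart: 2 of the called entries are forms of 1 RNA and 2 are named as arms of 1 miRNA. chi-miR-129-5p and chi-miR-129-3p reached the filter's level of 0.967 CPM only at 1 month, and chi-miR-128-5p mainly there. These entries could hardly be in the test without being higher at 1 month. The median log2 fold change over the 13 was -0.98 to 12 months and -1.27 to 24 months, beside -0.02 and -0.06 over all entries.

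Between 12 and 24 months no member differed by the test. edgeR called 0 of 13, beside 0.0% of all 937 entries, and DESeq2 and limma voom also called 0. At an unadjusted p under 0.05 there was 1 member, chi-miR-129-3p, beside 4.27% of all entries. Libraries of the 2 ages did not overlap in 1 of 13 members (7.69%), beside 9.82% of all entries: this was chi-miR-129-5p, with 14 counts in all at 12 months and 4 at 24 months and a log2 fold change of -1.68 (SE 0.90, edgeR's adjusted p = 0.998).

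With miR-128 and miR-129 set aside, the other entries together stood at 84.6 ± 10.9 CPM (SD, n = 3) at 1 month, 83.4 ± 26.8 CPM at 12 months and 82.2 ± 22.9 CPM at 24 months. miR-128 alone went from 15351 ± 18519 to 412 ± 87.4 and 303 ± 119 CPM. The sum does not show that no single member changed: its parts had opposite differences in their means, with chi-miR-124a at 32.0 CPM at 1 month and 13.3 CPM at 24 months, and chi-miR-9-5p at 30.2 and 48.4 CPM, neither of them called by edgeR in the fit of all libraries.

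A second list of neural-enriched miRNAs outside the naming rule (miR-132, miR-138, miR-153, miR-212, miR-218, miR-338, miR-383 and miR-488) gives the level of other such RNAs in the same libraries. Its summed level was 240.0 to 259 CPM at 1 month, 295 to 319 CPM at 12 months and 222 to 338.3 CPM at 24 months, so the sum was not highest at 1 month. edgeR called 0 of its 14 tested entries at 12 months and 1, lower, at 24 months, beside 13.2% and 17.5% of all entries called lower. The median log2 fold change was -0.36 and -0.56, beside -0.02 and -0.06 for all entries, and miR-488 had no counts. The entry called, named after its values were seen, was miR-212-y at -2.29 (SE 0.58, edgeR's adjusted p = 0.0172), and it was lost without 24-month 3. At 12 months 1 entry of the list was called lower in 11 of the alternatives and 0 in the other 8. At 24 months the number called lower ran from 0 to 4. The most abundant entry of that list, chi-miR-338-3p, known from oligodendrocytes, was at 113 ± 26.6, 189 ± 32.8 and 154 ± 62.9 CPM (SD, n = 3). The summed level leans on this entry and hides opposite directions. Tested entries of miR-338, miR-138 and miR-383 had positive log2 fold changes at both later ages. Those of miR-132, miR-153, miR-212 and miR-218 had negative ones, so the sum does not show that the list was level.

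Markers of white blood cells moved with miR-128. The leukocyte list (miR-142, miR-146, miR-150, miR-155, miR-223 and miR-342; 16 of 22 entries tested, no number without counts) summed to 31593 to 133826 CPM at 1 month, 6075 to 7599 CPM at 12 months and 5141 to 6427 CPM at 24 months. edgeR called 12 of its 16 entries lower at 12 months and 14 lower at 24 months, with none higher, beside 13.2% and 17.5% of all entries called lower. Leaving out 1-month 2 gave 11 at either age, leaving out 12-month 4 gave 7 at 12 months, and leaving out 24-month 2 or 24-month 3 gave 9 or 7 at 24 months. Its most abundant entry, miR-142-x, a marker of blood cells, was at 51099 ± 45431, 1193 ± 32.0 and 1055 ± 154.7 CPM (SD, n = 3). The next, chi-miR-342-3p, was at 8891 ± 3515, 3034 ± 545 and 2696 ± 496 CPM. Both this list and miR-128 were highest in 1-month 2. In the other libraries of that age the order was opposite: 1-month 1 had more chi-miR-128-3p than 1-month 3 and the lower leukocyte sum, at 31593 against 47486 CPM.

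The sums of other lists also differed between 1 month and later. miR-181, known from thymocytes and other lymphoid cells, summed to 25054 to 148944 CPM at 1 month, 5113 to 6694 CPM at 12 months and 4869 to 5340 CPM at 24 months, most of it 1 entry, miR-181-x. edgeR called 3 of its 6 tested entries lower at either later age. That became 5 at 12 months without 1-month 3, 24-month 2 or 24-month 5, and 5 at 24 months without 1-month 3. The miR-17-92 family with its related clusters, known from dividing cells, summed to 17967 to 74634, 7016 to 9326 and 7414 to 8101 CPM, with 29 of 34 tested entries called lower at both later ages, again beside 13.2% and 17.5% of all entries, and 12 at 12 months without 12-month 4. The epithelial list (miR-200, miR-141, miR-429, miR-203, miR-205 and the miR-183 cluster) had higher sums later, at 9244 to 49252 CPM at 1 month, 111788 to 113071 CPM at 12 months and 120644 to 124849 CPM at 24 months, and was lowest in 1-month 2. edgeR called 5 of its 22 tested entries higher at 12 months and 9 at 24 months, beside 5.98% and 8.75% of all entries. Its most abundant entry, chi-miR-200a, was not called, with edgeR's adjusted p = 0.0695 and 0.0506. Without 1-month 2 the counts were 14 and 15, and over all left-out libraries they ran from 2 to 15 and from 3 to 17. In whole glands, a change in the number of cells of a type and a change in RNA per cell cannot be told apart, and the part that any of these lists has in the miR-128 and miR-129 results was not tested. The gland list (miR-148, miR-375, miR-7, miR-216 and miR-217) summed to 14870 to 72402, 151758 to 181961 and 182008 to 190019 CPM, again lowest at 1 month. The mesenchymal list (miR-143, miR-145, miR-199 and miR-214) overlapped between ages, at 17565 to 111724, 65619 to 96452 and 67843 to 73909 CPM. The red cell list (miR-144, miR-451 and miR-486) was at 2125 to 3408, 796 to 3421 and 1138 to 1224 CPM. The muscle list (miR-1, miR-133, miR-206, miR-208 and miR-499) was at 164 to 517, 249 to 2347 and 255 to 455 CPM. Library 12-month 4 stood apart in it, with the 2347 CPM. The sums of the endothelial miR-126 list overlapped between ages, at 4659 to 11933, 7419 to 10023 and 7219 to 8422 CPM.

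**Figure D4:**
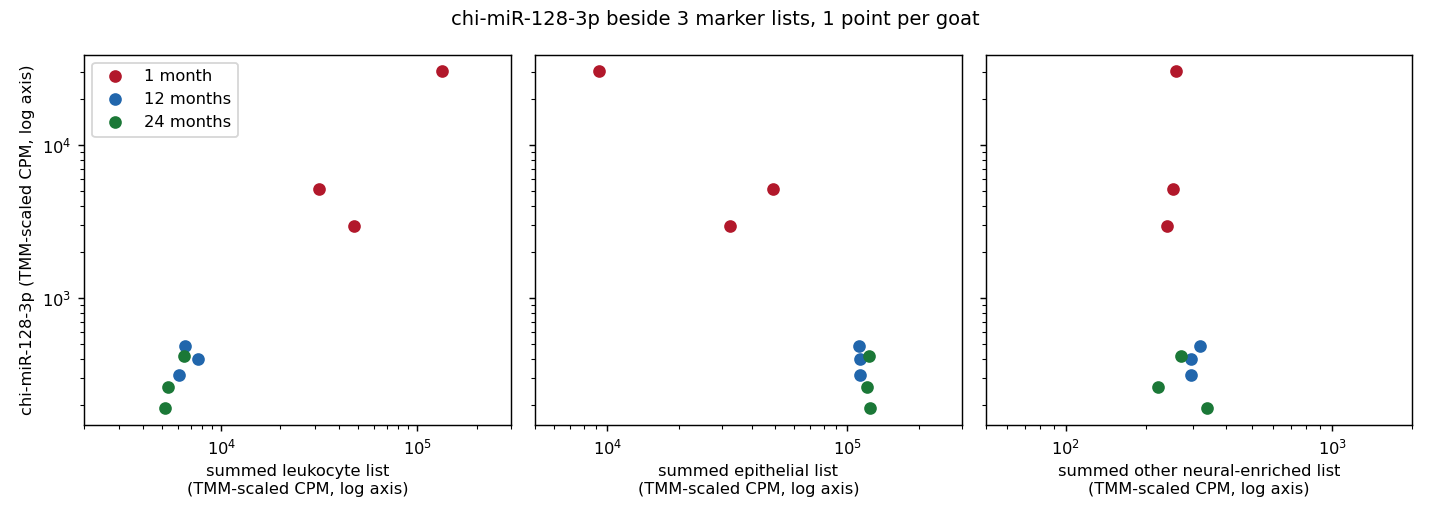
chi-miR-128-3p against the summed level of the leukocyte, the epithelial and the other neural-enriched list, all in TMM-scaled CPM on log axes, with 1 point per goat coloured by age. The points of 1 month lie at 31593 to 133826 CPM of the leukocyte list and at 9244 to 49252 CPM of the epithelial list, apart from all later points. The other neural-enriched list, a sum that leans on chi-miR-338-3p and holds entries with opposite directions, spans 222 to 338.3 CPM over all ages.

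The entries whose pattern over the 9 libraries was most like that of chi-miR-128-3p were found by Pearson's r of log2 CPM among 498 entries with a mean of at least 10 CPM at some age. They were chi-miR-16b-5p (r = 0.996), miR-181-x (0.991), chi-miR-15b-5p (0.9896), chi-miR-92b (0.9885) and, with the same sequence, chi-miR-92a-3p (0.9879), against a median r of -0.08 over all 498. Without 1-month 2 these r were 0.9756 to 0.992, and the first and second places were the same. The libraries share 1 step between 1 month and later and the high values of 1-month 2, so these r are a description. chi-miR-16b-5p was at 2359, 7448 and 1862 CPM in libraries 1, 2 and 3 of 1 month and at 418 to 617 CPM later, which is the same order of the 3 young goats as for chi-miR-128-3p with a smaller gap to later ages. miR-181-x was at 32476, 138106 and 23152 CPM at 1 month and at 4013 to 5808 CPM later.

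For chi-miR-129-5p the nearest were chi-miR-130b-3p (r = 0.957), miR-3548-y (0.951), chi-miR-106a-5p (0.9497), chi-miR-20b (0.9396) and chi-miR-18a-5p (0.938), with a median r of -0.04. Without 1-month 2 they were 0.916 to 0.955, and chi-miR-20b had place 16. Each of the 5 was highest in 1-month 2, such as chi-miR-130b-3p at 46.4, 187 and 31.1 CPM in libraries 1, 2 and 3 of 1 month, whereas chi-miR-129-5p was nearly level between 1-month 1 and 1-month 2. Among the members, chi-miR-128-3p had r = 0.992 with miR-128-y, 0.903 with chi-miR-129-5p and 0.529 with chi-miR-124a. It had r = -0.655 with chi-miR-9-5p and -0.850 with miR-9-z, and chi-miR-129-5p had r = 0.947 with chi-miR-129-3p. Without 1-month 2 the values with chi-miR-9-5p and miR-9-z were -0.312 and -0.678, and that with chi-miR-129-5p was 0.881.

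**Figure D5:**
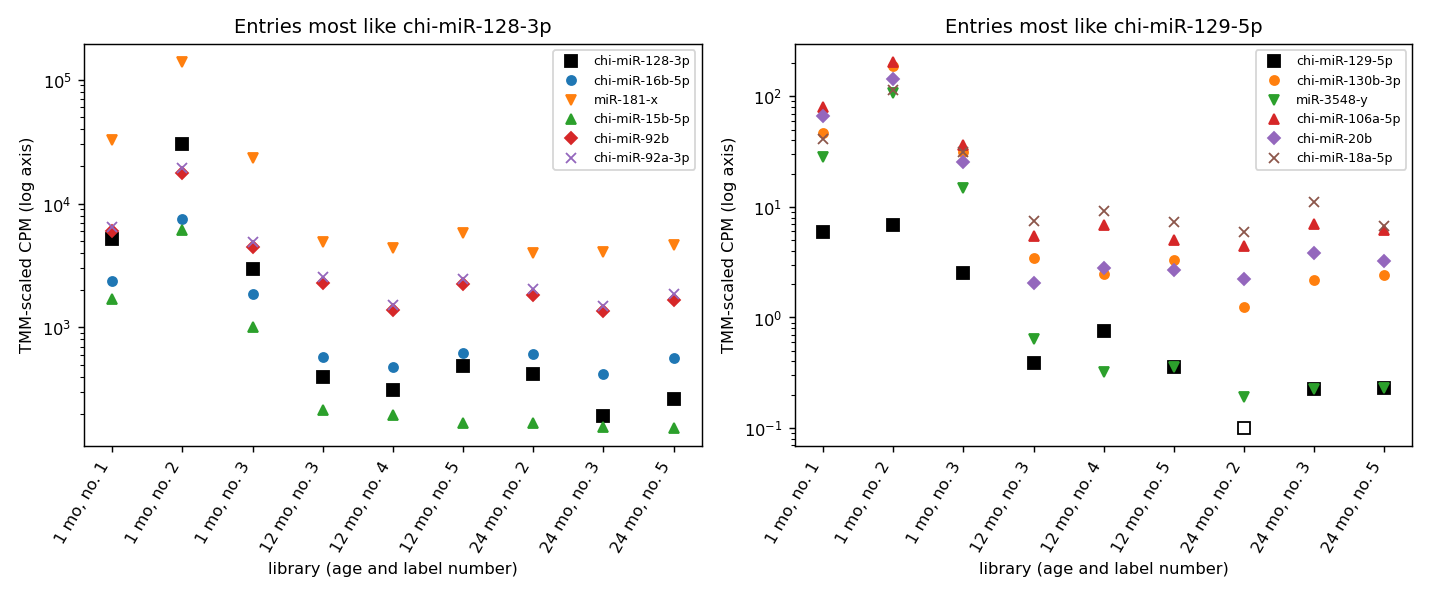
Levels in each of the 9 libraries (TMM-scaled CPM, log axis) of chi-miR-128-3p, left, and chi-miR-129-5p, right, with the 5 entries most like each; squares are the members, and the open square is the library of 24 months with no count of chi-miR-129-5p. All are high at 1 month, and in both panels all are highest in 1-month 2, where chi-miR-128-3p was 30473 CPM. The level of chi-miR-129-5p was 6.84 CPM there, close to its 5.98 CPM in 1-month 1.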

How the data were processed

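The authors deposited 1 table of unscaled read counts per mature miRNA entry for the 9 libraries, with the sequence of each entry, per the file headers. RNA was taken with TRIzol and sequenced by Illumina miRNA protocols, per the labels' protocols. FastQC and Bowtie are named without versions in the submitters' processing notes; no source used here gives the genome build, the miRNA database or the rule for reads that match several entries. Here, counts were filtered (edgeR, minimum count 10, minimum total 15), scaled by TMM and fitted with age as the group in edgeR 4.0.16 (R 4.3.3; robust quasi-likelihood, 6 residual degrees of freedom), tested on simulated data, with Benjamini-Hochberg adjustment over 937 entries at 0.05. DESeq2 1.42.0 and limma 3.58.1 were alternatives. Shares and ratios were compared by exact permutation (scipy 1.17.1). All 19 members are accounted for; those past the filter are named with values. From the marker lists at most the 2 most abundant entries are named, and for 2 members the 5 entries most like them. The members, lists and tests were chosen with earlier results of these data known. The edgeR p-values set a difference between ages against a spread between goats estimated over all 9 libraries, 3 per age. The permutation p-values set it against rearrangements of the libraries compared.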

Additional observations from a re-analysis of the deposited data

How the results depend on the processing

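Against 1 month, the direction and the call of miR-128-y, and of chi-miR-128-3p at 24 months, were the same under every alternative that lists them. The numbers in the labels do not pair the goats: 5 pairs with the same number had deviations correlated at -0.198 to 0.150. Fitted with these numbers as a replicate block, the calls among members went from 3 to 1 at 12 months, from 4 to 2 at 24 months and from 4 to 2 for any age, while calls over all entries went from 180, 246 and 192 to 4, 71 and 13. The block leaves fewer residual degrees of freedom than the fit without it. Libraries 1-month 1 and 12-month 4, each the only one with its number, are fitted exactly there. A call lost in the block fit does not show that a difference is absent. The calls lost were chi-miR-128-3p at 12 months (-3.77, adjusted p = 0.0771), chi-miR-129-5p at 12 and 24 months (-3.75 and -4.99, adjusted p = 0.304 and 0.0621) and chi-miR-129-3p at 24 months (-8.64, edgeR's adjusted p = 0.0735). Called lower in the block fit were 2 and 6 leukocyte, 0 and 3 miR-181 and 0 and 9 miR-17-92 entries at 12 and 24 months, and called higher 0 and 9 epithelial entries. With library size alone, 5 miR-181 entries were called lower at 12 months. Leaving out single libraries, calls among members stayed at 3 at 12 months, 0 between 12 and 24 months and 4 for any age, and ran from 4 to 5 at 24 months. The exact permutation p rose to 0.0714, the smallest possible for 2 against 6, when a library of 1 month was left out; log2 differences over all left-out libraries ran from -5.94 to -4.04 (miR-128 share), -4.81 to -3.97 (miR-129 share), -2.23 to -1.87 (longer form) and -3.46 to -2.60 (miR-128 arms). The miR-129 arm ratio turned to -0.15 and -0.72 with pseudocounts 1 and 5 and ran from -0.14 to 0.53 over left-out libraries. Only uncalled values reversed. At 12 months these were chi-miR-9-5p (-0.015 with only the ages compared; -0.23 to 0.51 over left-out libraries), chi-miR-9-3p (-0.013 with library size alone, -0.046 with only the ages compared; -0.37 to 0.57), chi-miR-219 (-0.038 with library size alone, -0.096 with no filter, -0.054 with the strict filter, -0.14 with only the ages compared, -0.14 with joined entries; -0.40 to 0.39), miR-124-y (-0.39 with the block; -0.38 to 0.72) and miR-219-x (-1.53 to 0.068). At 24 months they were chi-miR-9-3p (0.014 with upper quartile scaling; -0.71 to 0.18) and miR-219-x (-0.97 to 0.46), and between 12 and 24 months miR-128-y (-0.14 to 0.28). Library size alone moved the median of all entries to -0.20 at 12 and -0.36 at 24 months. The causes were not tested. For members under 1 CPM, depth limits what can be seen.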
